A study of Homo sapiens with 6 samples.

Results

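The genes examined here serve the presentation of peptides on HLA molecules. They are 37 of the 58735 annotated genes counted in Jurkat, a widely used line from a human T cell leukaemia, and were chosen by their names in GENCODE 29, with earlier results of these data known. They comprise 6 class I chain genes, 6 genes of peptide transport, loading and trimming, 5 of the immunoproteasome and its activator, 5 regulators, 6 class II chain genes, 7 of class II loading, and 2 stress ligand genes. The 6 RNA-seq libraries form groups of 3. Both were Jurkat cells infected with a lentiviral vector, which carried a control short hairpin RNA in shCtrl and a hairpin against SATB1, a DNA-binding organiser of T cell chromatin, in shSATB1. The labels give a single construct per group and do not say that the replicates were separate infections or cultures, so p-values rest on a spread between libraries that may be technical.

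Nucleated cells show fragments of their own proteins on class I molecules, each a heavy chain (HLA-B, HLA-C, HLA-E and others) paired with beta-2-microglobulin. Proteasomes cut the peptides, the TAP transporter moves them into the endoplasmic reticulum, aminopeptidases trim them, and tapasin helps load them. Interferon gamma, partly through the factor IRF1, raises most of these genes and swaps constitutive proteasome subunits for immunoproteasome subunits. The coactivator NLRC5 acts on class I promoters and CIITA on class II promoters, both through the RFX complex, which binds beside a CCAAT-type Y box. Class II molecules are typical of antigen-presenting cells, and human T cells can express them when activated.

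Short stretches of promoter are shown first, because interferon-responsive factors and the Y box factor NF-Y are known to recognise such letters. RefSeq promoter windows (GRCh38.p14, 250 bases before to 50 after a start site) were found for 32 of 37 members, 44 windows in all. HLA-E, NLRC5, CIITA, HLA-DRA and CTSS had none. The core of the interferon-stimulated response element, searched as GAAANNGAA on both strands, occurred in 16 of 44 windows (36.4%), against 8.11% of 35116 windows of all genes. Below, capitals mark that core, and positions count from 0 at the start site. PSMB10 (chr16:67936811-67936910, minus strand) held it at -21, PSME2 (chr14:24146571-24146670, minus strand) at -28, PSME1 (chr14:24136134-24136233, plus strand) at 6 in reverse, ERAP2 (chr5:96876440-96876539, plus strand) at -30, and TAPBP (chr6:33314039-33314138, minus strand) in overlapping copies at -20 and -14.
PSMB10: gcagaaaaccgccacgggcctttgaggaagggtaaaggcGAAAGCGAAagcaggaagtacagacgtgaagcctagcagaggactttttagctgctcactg
PSME2: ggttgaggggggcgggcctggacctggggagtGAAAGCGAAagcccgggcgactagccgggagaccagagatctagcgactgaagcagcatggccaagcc
PSME1: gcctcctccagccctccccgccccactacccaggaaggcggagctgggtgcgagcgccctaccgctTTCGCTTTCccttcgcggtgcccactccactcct
ERAP2: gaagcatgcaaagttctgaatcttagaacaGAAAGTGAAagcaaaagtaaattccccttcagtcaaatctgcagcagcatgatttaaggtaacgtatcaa
TAPBP: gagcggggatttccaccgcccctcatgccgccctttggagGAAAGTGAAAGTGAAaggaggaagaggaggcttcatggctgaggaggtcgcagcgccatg

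B2M (chr15:44711357-44711456, plus strand) and TAP1 (chr6:32853765-32853864, minus strand) held it further upstream, as overlapping copies that began at -144 and -138 in B2M and, in reverse, at -133 and -127 in TAP1.
B2M: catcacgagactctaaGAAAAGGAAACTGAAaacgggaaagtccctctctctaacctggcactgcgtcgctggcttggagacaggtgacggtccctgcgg
TAP1: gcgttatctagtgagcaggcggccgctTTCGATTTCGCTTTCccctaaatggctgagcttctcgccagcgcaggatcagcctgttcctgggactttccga

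The Y box letters CCAAT, searched on both strands, occurred in 21 member windows (47.7%), against 34.6% of all windows. HLA-B (chr6:31357220-31357279, minus strand) and HLA-C (chr6:31272133-31272192, minus strand) both held it at -56, and HLA-F (chr6:29723334-29723393, plus strand) at -57. Each also had a further copy upstream, on either strand. Here capitals mark CCAAT and its reverse complement.
HLA-B: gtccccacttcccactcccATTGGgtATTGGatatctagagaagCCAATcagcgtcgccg
HLA-C: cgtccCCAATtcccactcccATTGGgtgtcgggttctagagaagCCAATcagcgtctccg
HLA-F: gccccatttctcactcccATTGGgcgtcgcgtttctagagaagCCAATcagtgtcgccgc

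The X2 box letters TGACGT were found in 9.09% of member windows and 7.98% of all windows, and the gamma-activated site TTCNNNGAA in 6.82% and 7.66%. In the stretches shown, no match of one of these searches overlapped a match of another. Of the 16 members with a GAAANNGAA match, 13 were tested, and 6 of these were lower in shSATB1, with a median log2 fold change of -0.21. Of the 16 members with a window and no match, 11 were tested, 2 were lower and 1 was higher, with a median of -0.09. The 2 lower members are HLA-B and PSMB9. The search counts only the letters GAAANNGAA, so no match does not mean that the element is absent in another form. The HLA-B and HLA-C windows, for example, hold tttcacttc, which the search does not count. Whether this stretch acts as such an element was not tested. The PSMB9 window begins at chr6:32853942 and leaves out the TAP1 matches, which lie upstream of PSMB9 within chr6:32853765-32853864. Over all genes 16.6% were lower, and the difference between members with and without a match was not tested. A match describes the sequence and is not evidence of binding.

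SATB1 itself measured 279.1, 258.5 and 259.3 CPM (counts scaled to a common library size, by TMM) in replicates 1 to 3 of shCtrl and 101.8, 100.2 and 104.1 CPM in those of shSATB1, which left 38.4% of the control level (edgeR quasi-likelihood test, adjusted p = 1.11e-08). Libraries held between 26626539 and 28913623 reads in genes, so 3 reads correspond to 0.103 to 0.111 CPM. Of 12 T lineage markers, all expressed, 6 were lower and 2 higher in shSATB1, against 16.6% lower and 14.3% higher over all genes tested. Levels ran from LAT at 9.12 CPM in shCtrl and 13.5 CPM in shSATB1 to LCK at 877.4 and 781.4 CPM. Of the markers of other cells, 1 of 8 myeloid or dendritic genes and 1 of 5 NK genes reached 10 reads in any library, and 3 of 8 B cell genes did. CD79A (60.5 and 50.4 CPM) and BLK (15.7 and 11.6 CPM) carried most of the B cell signal, while MS4A1 averaged at most 0.188 CPM. Myeloid markers summed to between 0.552 and 1.2 CPM in every library. Of 5 epithelial or stromal markers, 3 reached 10 reads: PECAM1, which blood cells also express, fell from 174.8 ± 1.78 to 94.3 ± 2.14 CPM (edgeR adjusted p = 3.75e-07), COL1A1 rose from 15.5 ± 1.52 to 20.8 ± 0.694 CPM (adjusted p = 0.00295), and KRT8 averaged at most 0.219 CPM. EPCAM had 0 reads. The part of these marker changes in the results was not tested. Cell number and RNA per cell cannot be told apart in bulk RNA.

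Of the 37 members, 28 had enough reads to be tested, 6 had only a few reads, and 3 had fewer than 3 reads in every library. Of the 9 that could not be tested, 7 belong to class II. HLA-DRA, the alpha chain of HLA-DR, had 2 reads in shCtrl replicate 1 and 0 in the other libraries. CD74, the invariant chain that guards the class II groove, had 2 to 6 reads per library. HLA-DPB1 had 1 to 6 reads, HLA-DQA1 2 to 8, HLA-DMB 0 to 5 and HLA-DOB 1 to 4. IFI30, a lysosomal thiol reductase, had 1 to 4 reads. HLA-G, a class I gene known from the placenta, had 0 reads in all 6 libraries, which allows up to 3 reads in each. At this depth no difference between the groups could be shown for these genes.

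TAP2, the partner of TAP1 in the peptide transporter, had 1 read in shCtrl replicate 3 and 0 elsewhere, and this value cannot be read as its level. In GENCODE 29, 90.6% of its coding bases also lie in exons of AL669918.1, a gene that joins HLA-DOB and TAP2, and the files count reads that fall on more than 1 gene as ambiguous, 8.99% to 10.1% of reads per library, and not for either gene. The same holds for 100% of the coding bases of IFI30, 73.0% in HLA-DOB, 58.3% in PSMB10 and 54.5% in HLA-DMB, all on the same strand as the overlapping gene. Their counts may leave out such reads. How far this accounts for the low counts was not tested. The interferon factor IRF9 had 0 reads and 88.9% such overlap. In HLA-B and HLA-F, 39.2% and 41.8% of coding bases overlap other genes, mostly on the opposite strand, and the strand setting is not given in the sources used here. Reads can also be lost to near-identical copies elsewhere: in the reference, at most 9.92% of the 50-base words of a member (HLA-DRB1) occurred in a gene elsewhere, and 0.673% to 4.34% for HLA-B, HLA-C, HLA-E and HLA-F. Jurkat alleles differ from the reference, and how far that lowers HLA counts was not tested.

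Per kilobase of exon (FPKM, which is CPM divided by exon length), B2M was the most abundant member in shCtrl at 128.5 ± 13.2 FPKM (mean ± SD, n = 3), followed by PSME1 at 108.7 ± 12.96 and HLA-C at 60.3 ± 2.87. Exon length sums every annotated exon, 6079 bases in B2M, 1781 in PSME1 and 20757 in CIITA, of which 357, 832 and 3763 are coding. FPKM thus depends on which exons are annotated, and how far this shifts the order was not tested. In CPM, shCtrl averaged 781.1 for B2M, 193.6 for PSME1, 1.83 for CIITA and 60.3 for NLRC5. PSME2, RFX5, HLA-B, PSMB8 and HLA-E lay between 25.1 and 36.0 FPKM. The class II genes that could be tested were near the lower end, with HLA-DRB1 at 2.28 ± 0.230 FPKM, HLA-DQB1 at 1.08 ± 0.0142, HLA-DMA at 1.03 ± 0.0849, HLA-DOA at 0.395 ± 0.0992 and HLA-DPA1 at 0.313 ± 0.0433. CIITA, the class II coactivator, was at 0.0883 ± 0.0157 FPKM, whereas NLRC5, its class I counterpart, was at 4.87 ± 0.225. Class I chains and RFX subunits were thus present beside low levels of class II chains and of CIITA.

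**Figure D1:**
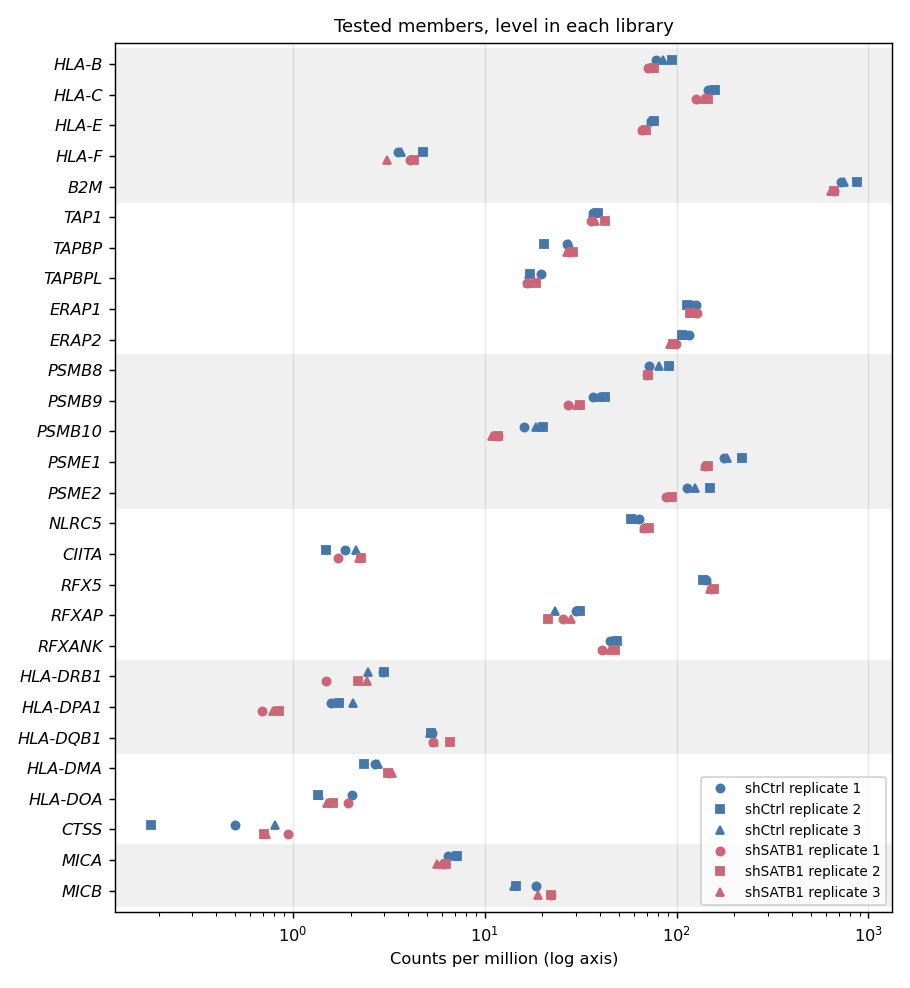
Level of each of the 28 tested members in every library, in CPM on a log axis, with shCtrl in blue and shSATB1 in red and 1 symbol per replicate; shaded bands separate roles. All 5 immunoproteasome and activator genes sit lower in shSATB1 than in shCtrl without overlap, and HLA-DPA1 shows the widest gap. Among all genes tested, 45.1% had no overlap, in either direction.

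Of the 28 tested members, 8 fell and 2 rose in shSATB1 (edgeR adjusted p under 0.05, Benjamini-Hochberg over 17520 genes). That is 28.6% lower and 7.14% higher, against 16.6% lower and 14.3% higher among all genes tested and 30.9% in either direction. The groups did not overlap in 18 members, 64.3%, against 45.1% of all genes, with 13 lower and 5 higher in shSATB1. The median log2 fold change of the members was -0.12, against 0.01 for all genes. Changes were modest, from 1.15-fold to 2.30-fold among the 10 called members. With each library's trend with exon length removed, calls over all genes shifted to 1986 higher and 3685 lower, from 2500 and 2910, and those among the members to 1 higher and 8 lower.

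Gene length and reads outside exons moved with the groups, and both touch the results that follow. Among tested genes of at least 8 CPM, split into 5 equal classes by exon length, the shortest class (up to 3142 bases) had a median log2 fold change of -0.21 with 44.5% lower, and the longest class (from 8562 bases) had 0.12 with 33.9% higher. HLA-B, HLA-C, HLA-E, PSMB8, PSMB9, PSMB10, PSME1, RFXANK, RFXAP and MICB belong to the shortest class, PSME2 to the next, and NLRC5 to the longest. Reads in no annotated exon were 11.4% ± 0.435 of reads in shSATB1, and 9.10% ± 1.22 in the control group. Once this share entered the fit as a covariate, ERAP2 was the 1 of the 10 called members that still passed, and 854 genes were higher and 1256 lower. The lowest share in shSATB1 (10.9%) lay above the highest in shCtrl (10.2%), so the covariate and the knockdown cannot be told apart.

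**Figure D2:**
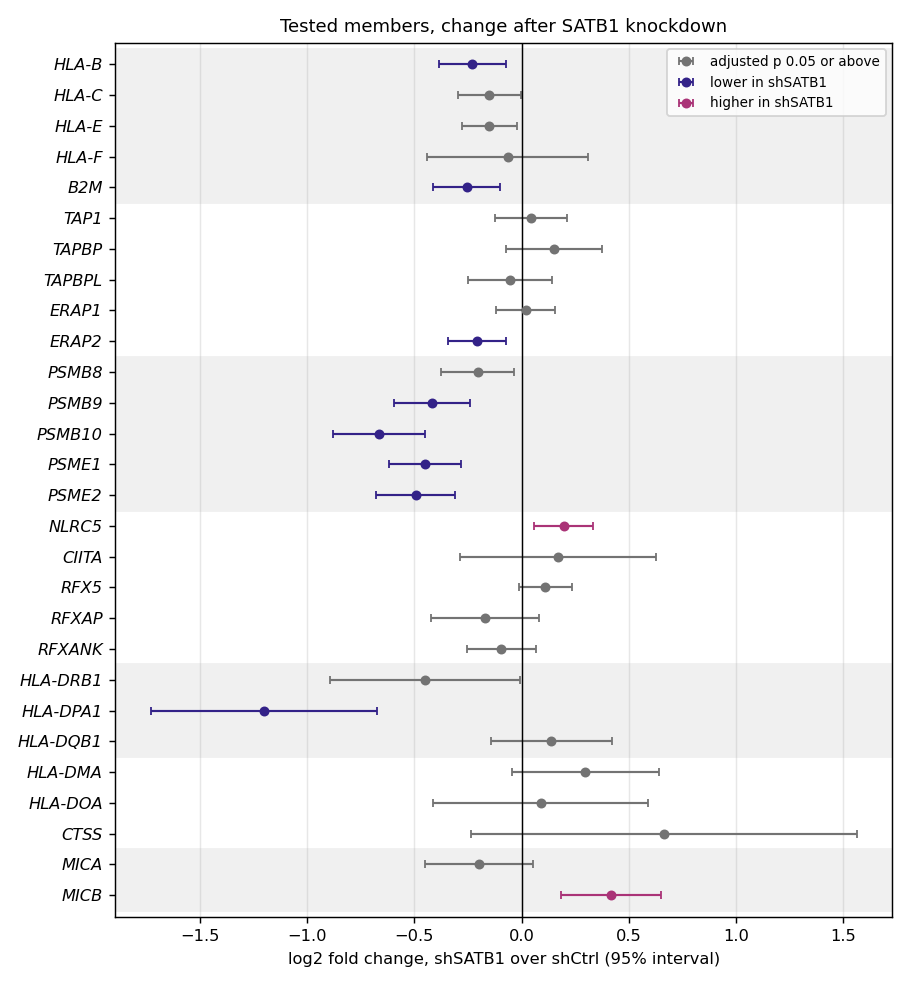
log2 fold change of shSATB1 over shCtrl for the 28 tested members, with 95% intervals from the edgeR fit. Points left of 0 are lower in shSATB1; HLA-DPA1 at -1.203 and PSMB10 at -0.67 lie furthest left, and MICB at 0.42 and NLRC5 at 0.20 are the members called higher.

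All 5 genes of the immunoproteasome and its activator were lower without overlap between the groups, and 4 of them passed the test, with a median log2 fold change of -0.45. Among all genes tested, 16.6% were called lower, and in 45.1% the groups did not overlap in either direction. PSMB8, PSMB9, PSMB10 and PSME1 belong to the shortest length class, in which 44.5% were lower, and PSME2 to the next, with 31.8% lower. PSMB10, which encodes the catalytic subunit beta2i (chromosome 16, 67934502 to 67937087), measured 16.0, 20.1 and 18.6 CPM in shCtrl against 11.7, 11.8 and 11.0 CPM in shSATB1. Its exons share 58.3% of their coding bases with AC040162.1, as given above. Every knockdown library was below every control library, and the level was 1.59-fold lower (log2 fold change -0.67, SE 0.1003, edgeR adjusted p = 0.000288). PSMB9, the subunit beta1i (chromosome 6, 32844136 to 32859585), went from 36.5, 42.6 and 39.5 CPM to 27.1, 31.3 and 30.4 CPM. This was a 1.34-fold fall without overlap (log2 fold change -0.42, SE 0.0820, edgeR adjusted p = 0.00184). PSMB8, the subunit beta5i (chromosome 6, 32840717 to 32844703), read 71.5, 91.3 and 81.0 CPM in shCtrl and 70.0, 71.0 and 70.7 CPM in shSATB1. The groups lay side by side without overlap, and the difference did not pass (log2 fold change -0.20, SE 0.0796, edgeR adjusted p = 0.0663).

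PSME1 and PSME2 encode PA28 alpha and beta, the ring that caps the proteasome and favours release of peptides suited to class I. PSME1 (chromosome 14, 24136158 to 24138967) fell 1.37-fold, from 176.7, 219.9 and 184.2 CPM to 140.1, 145.0 and 140.1 CPM (log2 fold change -0.45, SE 0.0776, edgeR adjusted p = 0.000757). PSME2 (chromosome 14, 24143362 to 24147570) fell 1.41-fold, from 113.3, 149.0 and 124.6 CPM to 88.4, 94.3 and 92.0 CPM (log2 fold change -0.49, SE 0.0860, edgeR adjusted p = 0.000816). In both genes shCtrl replicate 2 was the highest library, and the shSATB1 libraries lay close together. The PSMB9, PSMB10, PSME1 and PSME2 calls held in 14 of 15 other settings each. They ended with the covariate for reads outside exons, where their adjusted p in edgeR was 0.345, 0.105, 0.241 and 0.394.

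Constitutive counterparts and assembly factors of the proteasome were set beside them. Of 10 tested, 7 fell (PSMB6, PSMB7, POMP and PSMG1 to PSMG4) and PSMB5, PSME3 and PSME4 did not pass, with a median log2 fold change of -0.37. Among all genes tested, 16.6% were lower. How far the trend with gene length bears on this count was not tested. PSMB6 and PSMB7, which PSMB9 and PSMB10 replace, had log2 fold changes of -0.37 (SE 0.0774, edgeR adjusted p = 0.00281) and -0.33 (SE 0.0751, adjusted p = 0.00454). PSMB5, which PSMB8 replaces, had -0.14 (SE 0.0771, adjusted p = 0.178). The maturation factor gene POMP fell from 161.4 ± 18.9 to 114.7 ± 2.78 CPM, and the assembly chaperone genes PSMG1, PSMG2 and PSMG3 had log2 fold changes of -0.39, -0.385 and -0.38 (edgeR adjusted p = 0.000605, 0.00482 and 0.00421).

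Ratios of paired genes within a library, which need no library size, compare these changes directly. The size of a share by FPKM rests on the annotated exon length of each gene, which is the same in both groups. The share of the immunosubunit in each pair, by FPKM, was 27.0% ± 0.486 in shCtrl and 26.3% ± 1.13 in shSATB1 for PSMB8 with PSMB5, and 14.8% ± 0.304 and 14.3% ± 0.734 for PSMB9 with PSMB6. In log2, these ratios differed by -0.06 and -0.05 between the groups, less than the spread of the shSATB1 libraries (two-sided exact permutation tests, p = 0.4 for each, adjusted p = 0.489 over 11 pairs). For PSMB10 with PSMB7 the share was 6.82%, 6.99% and 7.05% in shCtrl and 5.97%, 5.54% and 5.30% in shSATB1, without overlap, a log2 difference of -0.33. The PSMB10 counts may leave out reads on the 58.3% of its coding bases shared with AC040162.1. The size of this share may therefore be too low in both groups. PSME1 and PSME2 fell relative to PSME3, which encodes the nuclear activator PA28 gamma, by log2 differences of -0.36 and -0.41, again without overlap. ERAP1 stood higher relative to ERAP2 in every shSATB1 library, by 0.23. For these 4 pairs the exact permutation test gave p = 0.1, the smallest that 3 against 3 libraries allow, and adjusted p = 0.275 over the 11 pairs. TAP1 to TAP2 could not be compared, since TAP2 had 1 read.

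**Figure D3:**
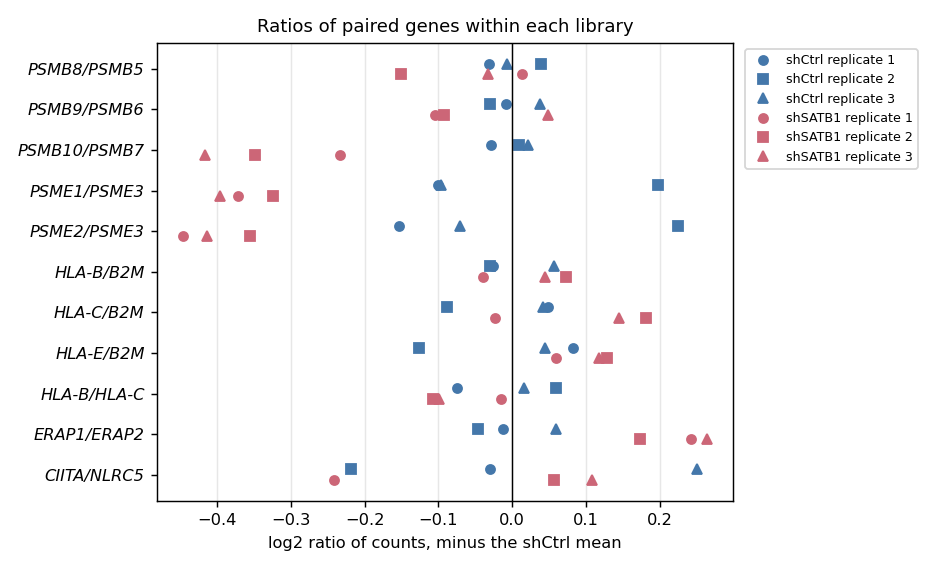
log2 ratio of the counts of paired genes in each library, with the shCtrl mean of each pair set to 0; blue symbols are shCtrl and red symbols shSATB1, 1 per replicate. For PSMB10/PSMB7, PSME1/PSME3 and PSME2/PSME3 all red symbols lie left of all blue ones and for ERAP1/ERAP2 right of them, whereas for PSMB8/PSMB5, PSMB9/PSMB6, HLA-B/B2M and CIITA/NLRC5 the groups overlap.

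Of the 5 tested class I chain genes, B2M and HLA-B fell and the other 3 did not pass. Over all genes 16.6% were lower. B2M, the light chain shared by all class I molecules (chromosome 15, 44711487 to 44718877), measured 723.8, 873.1 and 746.5 CPM in shCtrl against 659.7, 660.5 and 641.5 CPM in shSATB1. It fell 1.195-fold without overlap (log2 fold change -0.26, SE 0.0731, edgeR adjusted p = 0.0166). HLA-B (chromosome 6, 31269491 to 31357188) went from 78.2, 94.2 and 85.5 CPM to 70.7, 76.5 and 72.9 CPM, a 1.17-fold fall (log2 fold change -0.23, SE 0.0731, edgeR adjusted p = 0.0288). Its highest shSATB1 library was just below its lowest shCtrl library. HLA-C read 145.4, 159.3 and 149.1 CPM in shCtrl and 126.0, 145.3 and 137.6 CPM in shSATB1 (log2 fold change -0.15, edgeR adjusted p = 0.112). HLA-E, a ligand of NK receptors, read 73.5, 76.7 and 73.9 CPM and then 65.9, 69.2 and 66.8 CPM (log2 fold change -0.15, adjusted p = 0.0731). Both genes were lower in every shSATB1 library and did not pass. HLA-F, at 4.003 ± 0.693 and 3.83 ± 0.638 CPM, overlapped between the groups. The ratios of HLA-B, HLA-C and HLA-E to B2M overlapped between the groups, with log2 differences of 0.03, 0.10 and 0.10 (two-sided exact permutation tests, p = 0.7, 0.3 and 0.2, adjusted p = 0.77, 0.471 and 0.367). The HLA-B to HLA-C ratio differed by -0.07 (exact p = 0.2, adjusted p = 0.367).

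The B2M call ended when shSATB1 replicate 1, 2 or 3 was left out (edgeR adjusted p = 0.0701, 0.0614 and 0.0937), with log2 fold changes of -0.255, -0.256 and -0.235 close to the full value. Without shCtrl replicate 2 the B2M difference shrank to -0.165 and still passed (adjusted p = 0.0138). It ended with the covariate, at -0.00535 (adjusted p = 0.976). The HLA-B call ended without shCtrl replicate 2 or 3 (adjusted p = 0.0694 and 0.0911), without shSATB1 replicate 1, 2 or 3 (adjusted p = 0.146, 0.0555 and 0.115) and with the covariate, where its log2 fold change turned to 0.03 (adjusted p = 0.891). HLA-C and PSMB8 passed without shCtrl replicate 1 (adjusted p = 0.0385 and 0.00126), and PSMB8 also with no filter on low counts (adjusted p = 0.0248).

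Among genes of transport, loading and trimming, ERAP2 was the 1 of 5 tested that was called, beside 30.9% of all genes tested in either direction. ERAP2, an aminopeptidase that trims peptides in the endoplasmic reticulum (chromosome 5, 96875939 to 96919716), measured 116.6, 107.4 and 106.6 CPM in shCtrl against 99.0, 95.3 and 92.1 CPM in shSATB1. It fell 1.15-fold without overlap (log2 fold change -0.21, SE 0.0631, edgeR adjusted p = 0.0233). The call held with the covariate for reads outside exons. It ended when shCtrl replicate 3 was left out (adjusted p = 0.0521) or shSATB1 replicate 1, 2 or 3 (adjusted p = 0.0608, 0.0736 and 0.131).

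ERAP1, its neighbour and partner in trimming, read 126.2, 113.5 and 121.2 CPM in shCtrl and 127.9, 117.3 and 120.7 CPM in shSATB1, with a log2 fold change of 0.02 (SE 0.0643, edgeR adjusted p = 0.848). TAP1, the measurable chain of the transporter, read 36.6, 39.2 and 36.7 CPM and then 35.8, 42.5 and 37.6 CPM (log2 fold change 0.04, SE 0.0780, adjusted p = 0.716). Both genes overlapped between the groups. TAP1 and PSMB9 lie on opposite strands with start sites 488 bases apart in RefSeq, and PSMB9 was called while TAP1 was not, though the difference between them was not tested. TAPBP, which encodes tapasin, averaged 25.0 ± 4.05 CPM in shCtrl, with replicate 2 low at 20.3 CPM, and 27.7 ± 1.08 CPM in shSATB1 (adjusted p = 0.301). TAPBPL, a tapasin-like peptide editor, averaged 18.1 ± 1.49 and 17.4 ± 1.07 CPM (adjusted p = 0.691).

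A wider list around loading was partly lower as well. It holds chaperones and folding factors, genes of translocation and of export from the endoplasmic reticulum, and peptidases. Of 20 such genes, all tested, 9 fell and 2 rose, against 16.6% lower and 14.3% higher among all genes tested. Their median log2 fold change was -0.16. CALR, which encodes calreticulin, the lectin chaperone of the loading complex, averaged 1530 ± 99.5 CPM in shCtrl and 713 ± 15.9 CPM in shSATB1 (log2 fold change -1.10, SE 0.0655, edgeR adjusted p = 2.3e-07). PDIA3, the ERp57 oxidoreductase that pairs with tapasin, averaged 220.3 ± 27.2 and 155.5 ± 2.78 CPM (log2 fold change -0.50, adjusted p = 0.000393). BCAP31, an endoplasmic reticulum sorting protein, had a log2 fold change of -0.48 (adjusted p = 0.000204). LNPEP, an aminopeptidase of endosomal cross-presentation, rose from 133.6 ± 14.6 to 176.7 ± 13.2 CPM (adjusted p = 0.00229). PDIA3 and BCAP31 thus changed by about as much as PSME2, and CALR by more.

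Of the 5 regulators, NLRC5 rose and the other 4 did not pass, beside 14.3% higher among all genes tested. NLRC5, the class I coactivator (chromosome 16, 56989485 to 57083531), read 63.4, 57.9 and 59.8 CPM in shCtrl and 67.3, 72.0 and 68.0 CPM in shSATB1. It was 1.15-fold higher without overlap (log2 fold change 0.20, SE 0.0644, edgeR adjusted p = 0.0329). The class I chains named above had negative log2 fold changes in the same libraries. The NLRC5 call held in 8 of 15 other settings, the fewest of the 10 calls. It ended with the length trend removed (log2 fold change 0.03, adjusted p = 0.778), with no filter on low counts (0.0831) and with the covariate (0.468). It also ended without shCtrl replicate 3 (0.126) and without shSATB1 replicate 1, 2 or 3 (0.0681, 0.0973 and 0.072).

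CIITA read 1.87, 1.49 and 2.14 CPM in shCtrl and 1.71, 2.26 and 2.21 CPM in shSATB1, with overlap (log2 fold change 0.17, SE 0.213, edgeR adjusted p = 0.588). Its ratio to NLRC5 differed by -0.03 (two-sided exact permutation test, p = 0.9, adjusted p = 0.9). RFX5, the DNA-binding subunit of RFX, read 142.5, 137.8 and 144.6 CPM and then 152.0, 157.5 and 149.6 CPM. It was higher in every shSATB1 library and did not pass (log2 fold change 0.11, SE 0.0584, adjusted p = 0.167). RFXAP averaged 28.2 ± 4.27 and 25.0 ± 3.45 CPM (adjusted p = 0.298) and RFXANK 47.5 ± 2.13 and 44.4 ± 3.51 CPM (adjusted p = 0.366), both overlapping.

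Of 20 tested factors known to act at these promoters, 3 were higher and 4 lower, near the 14.3% and 16.6% of all genes tested. Their median log2 fold change was -0.04. IRF1, the interferon-induced activator of the immunoproteasome, B2M and TAP1 genes, fell from 69.8 ± 2.64 to 46.4 ± 1.59 CPM (log2 fold change -0.59, SE 0.0639, edgeR adjusted p = 2.42e-05). NFKB1, the p50 subunit of NF-kappa-B, fell (log2 fold change -0.35, adjusted p = 0.00073), as did EED of the Polycomb repressive complex (-0.42, adjusted p = 0.000693). CREB1, which binds the X2 box, rose from 92.3 ± 3.11 to 120.3 ± 8.35 CPM (0.38, adjusted p = 0.000802).

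In the interferon gamma receptor pathway, 3 of 8 tested genes rose and 1 fell, against 14.3% higher and 16.6% lower among all genes tested. Their median log2 fold change was 0.09. The receptor kinase genes JAK1 and JAK2 rose by log2 fold changes of 0.27 and 0.39 (edgeR adjusted p = 0.00425 and 0.00311), and the feedback inhibitor gene SOCS3 by 0.47 (adjusted p = 0.0134). PTPN2, a phosphatase that dampens JAK and STAT signalling, fell from 133.5 ± 7.43 to 101.8 ± 4.34 CPM (adjusted p = 0.000575). Whether the IRF1 or kinase values bear on the members was not tested.

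Of the 6 class II chain genes, 3 could be tested and HLA-DPA1 fell, beside 16.6% lower among all genes tested. HLA-DPA1, the alpha chain of HLA-DP (chromosome 6, 33064569 to 33080775), read 1.58, 1.75 and 2.07 CPM in shCtrl and 0.692, 0.847 and 0.793 CPM in shSATB1. Each shSATB1 value was far below each shCtrl value. This was the widest gap of any tested member, a 2.30-fold fall (log2 fold change -1.203, SE 0.245, edgeR adjusted p = 0.00231, 95% interval of the ratio 0.302 to 0.626), at a level of 44 to 56 reads in shCtrl and 19 to 24 reads in shSATB1. It passed in 14 of 15 other settings and missed the threshold with the covariate, at -1.10 (adjusted p = 0.11). Its partner HLA-DPB1 had 2, 6 and 2 reads in shCtrl and 4, 1 and 3 in shSATB1, too few to compare.

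HLA-DRB1 read 2.94, 2.98 and 2.47 CPM in shCtrl and 1.49, 2.19 and 2.45 CPM in shSATB1 (log2 fold change -0.45, SE 0.206, edgeR adjusted p = 0.115). Its groups were separated by a narrow margin, and 8.64% of its 50-base words also occur in HLA-DRB5. HLA-DQB1 read 5.35, 5.27 and 5.21 CPM and then 5.35, 6.63 and 5.45 CPM, with the lowest shSATB1 library level with the highest shCtrl one (log2 fold change 0.14, adjusted p = 0.453). The estimates of the 3 tested chains thus differed in sign, but only HLA-DPA1 was called, and differences between the chains were not tested.

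None of the 3 tested class II loading genes passed, at an unadjusted p under 0.05 either in edgeR, and none was called by DESeq2 or limma-voom. HLA-DMA, part of the HLA-DM peptide editor, read 2.69, 2.36 and 2.77 CPM in shCtrl and 3.17, 3.14 and 3.31 CPM in shSATB1. It was higher in every shSATB1 library (log2 fold change 0.30, SE 0.161, edgeR adjusted p = 0.179). HLA-DOA, part of the inhibitor of HLA-DM, averaged 1.59 ± 0.398 and 1.69 ± 0.214 CPM (adjusted p = 0.808). CTSS, the protease that clears the invariant chain, averaged 0.499 ± 0.315 and 0.792 ± 0.134 CPM (adjusted p = 0.254), and 1 CPM was never reached.

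Of 12 other tested genes of class II processing and surface control, 2 were higher and 3 lower, beside 14.3% and 16.6% of all genes tested. The tetraspanin gene CD9 fell from 5.50 ± 0.324 to 3.85 ± 0.426 CPM (edgeR adjusted p = 0.0129) and the lysosomal protease gene CTSD from 23.6 ± 1.79 to 18.3 ± 1.34 CPM (adjusted p = 0.00654). MARCHF8, a ubiquitin ligase that removes class II from the surface, rose from 10.5 ± 1.99 to 13.8 ± 0.267 CPM (adjusted p = 0.0238), and LAMP2, a lysosomal membrane protein gene, rose from 125.0 ± 2.12 to 145.2 ± 4.51 CPM (adjusted p = 0.0124).

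Of the 2 stress ligand genes, MICB rose and MICA did not pass, beside 14.3% higher among all genes tested. MICB, a ligand of the activating receptor NKG2D (chromosome 6, 31494881 to 31511124), read 18.5, 14.6 and 14.3 CPM in shCtrl and 22.1, 22.2 and 19.0 CPM in shSATB1. The lowest shSATB1 library was just above the highest shCtrl library, and the level was 1.34-fold higher (log2 fold change 0.42, SE 0.108, edgeR adjusted p = 0.00985). It belongs to the shortest length class, in which 5.92% were higher. The call ended without shCtrl replicate 3 (adjusted p = 0.0572), when shSATB1 replicate 2 was left out (0.0513) and with the covariate (0.46).

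MICA, 94550 bases away between start sites, read 6.42, 7.201 and 7.05 CPM in shCtrl and 6.08, 6.28 and 5.65 CPM in shSATB1. It was lower in every shSATB1 library and did not pass (log2 fold change -0.20, SE 0.117, edgeR adjusted p = 0.217). Of 9 other tested genes of stress ligands and class I receptors, 1 was called lower, beside 16.6% of all genes tested. This was ULBP2, another NKG2D ligand, which fell from 18.6 ± 1.17 to 15.01 ± 1.49 CPM (edgeR adjusted p = 0.0239). ULBP1 was at 17.7 ± 1.37 and 20.5 ± 1.17 CPM (adjusted p = 0.082). Of these NKG2D ligands, then, 1 rose, 1 fell and the other two did not pass.

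Among 6 tested MHC-like and other HLA-region genes, 1 was higher and 0 were lower, beside 14.3% and 16.6% of all genes tested. FCGRT, the heavy chain of the neonatal Fc receptor, which also pairs with B2M, rose from 48.3 ± 3.15 to 59.4 ± 2.17 CPM (edgeR adjusted p = 0.00509). MR1, which presents vitamin B metabolites, was at 52.1 ± 4.41 and 59.7 ± 3.28 CPM (adjusted p = 0.0636).

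Position on chromosome 6 was set beside these values because 22 of the 37 members lie in the MHC. Of the 15 tested there, 3 were lower and 1 higher, with a median log2 fold change of -0.15. Of the 13 tested on other chromosomes, 5 were lower and 1 higher, with a median of -0.09. Between the outermost members (chromosome 6, 29722775 to 33314387, 3592 kb), 77 other genes were tested, of which 18 were lower and 4 higher, with a median of -0.08. Lower calls were thus 3 of 15 for members and 18 of 77 for other genes of the interval, beside 16.6% of all genes tested. The difference between these shares was not tested.

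**Figure D4:**
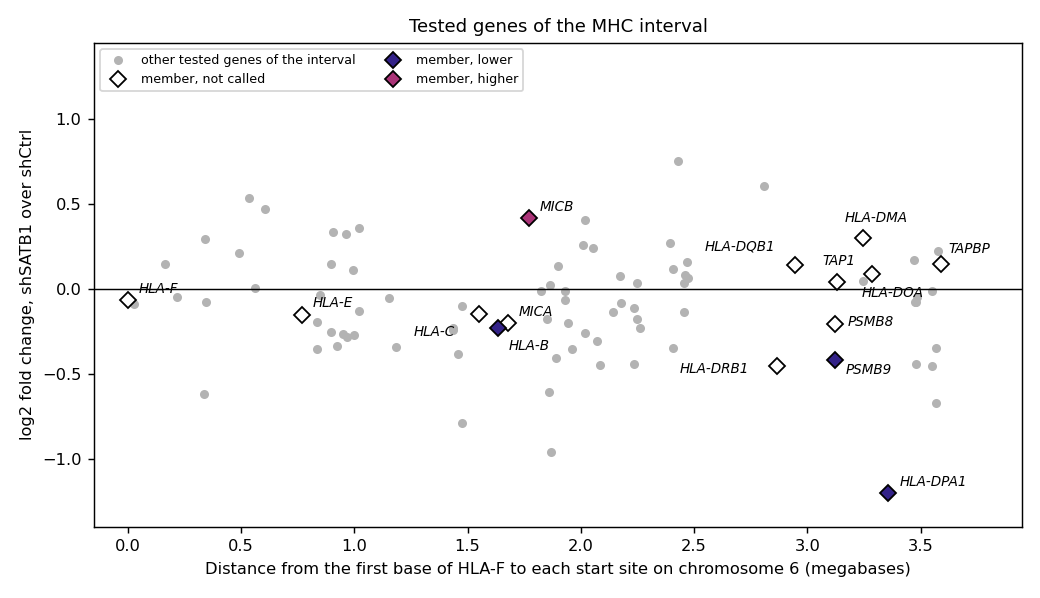
log2 fold change of shSATB1 over shCtrl for the tested genes of the MHC interval against distance from the first base of HLA-F in megabases; diamonds are members, filled where called, and grey points the 77 other genes. HLA-DPA1 at -1.203 is the lowest diamond, MICB at 0.42 the highest, and called members sit among grey points of both signs.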

How the data were processed

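RNA from Jurkat cells was sequenced in 6 libraries, 3 per group. The authors deposited 1 table per library of raw counts, whole reads per Ensembl gene, made with Trim Galore, STAR and HTSeq on hg38 per the submitters' processing notes. The sources used here give neither tool versions nor the annotation or strand setting. All 58735 IDs matched GENCODE 29. Lines that name no gene were left out of library sizes. Reads in no annotated exon made up 7.77% to 11.7% of reads, and ambiguous reads 8.99% to 10.1%.

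Counts were fitted with edgeR 4.0.16 in R 4.3.3 (TMM scaling, filterByExpr with a minimum count of 10, quasi-likelihood F test, Benjamini-Hochberg over 17520 genes, threshold 0.05). CPM use the effective library size, and FPKM divide CPM by the summed exon length. Ratios within a library used log2 of counts plus 0.5 and a two-sided exact permutation test. Replicates of a group differed beyond counting noise. The fit was tested on simulated data. It recovered 59.7% of genes changed by a log2 fold change of 0.5 in size, 80% at 1 and 97.1% at 2. Of its 171 calls there, 13 were false. There were 15 alternative settings, including DESeq2 1.42.0 and limma-voom 3.58.1.

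The members, lists and motifs were chosen with earlier results of these data known. All members are named, and from each other pathway list up to 4 called genes of largest log2 fold change, with the 2 most abundant where fewer than 2 were called. PSMB5, PSMB6, PSMB7 and PSME3 are given besides these, as paired counterparts. Marker lists are given by counts with examples. Some listed genes are not reported here.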

Additional observations from a re-analysis of the deposited data

Results flagged for a closer look

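Reads that fell in no annotated exon, which enter none of the comparisons of genes, made up 11.4% ± 0.435 (SD, n = 3) of reads in shSATB1 and 9.10% ± 1.22 in shCtrl. Each shSATB1 library (11.7%, 10.9% and 11.6%) lay above each shCtrl library (10.2%, 7.77% and 9.36%). This was picked out because it is a signal outside the gene counts that stood above the control libraries. Its part in the results was not tested beyond the fit that holds it as a covariate.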

How the results depend on the processing

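Calls among the members were 2 higher and 8 lower with DESeq2 size factors, upper-quartile scaling, a filter of 1 CPM in 3 libraries, DESeq2 and limma-voom. With no filter 1 member was higher and 9 lower (PSMB8 gained the call, adjusted p = 0.0248), and with the length trend removed 1 was higher and 8 lower. With the share of reads in no exon as a covariate, edgeR called 0 members higher and 1 lower (0 and 3 at an unadjusted p under 0.05), and 854 genes higher and 1256 lower over all genes. There the HLA-B log2 fold change turned from -0.23 to 0.0285 (adjusted p = 0.891). The cause was not tested.

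Leaving out each library in turn, members higher ranged from 0 to 2, with 0 without shCtrl replicate 3 and without shSATB1 replicate 2, where 3 and 2 members were at an unadjusted p under 0.05 in edgeR. Members lower ranged from 5 to 10, all genes higher from 1650 to 3218 and all genes lower from 1817 to 3562. Of the single-member log2 fold changes under other settings, 386 kept their call or stayed uncalled. A further 28 lost and 4 gained the call with the direction unchanged. In 1, HLA-B with the covariate, the direction reversed and the call was also lost. Changes of sign in members uncalled in both fits, such as HLA-C and PSMB8 with the covariate, are counted among the 386.

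With a replicate block, 2 members were higher and 9 lower (PSMB8 was added, adjusted p = 0.0367), and 2783 genes were higher and 3120 lower. Same-numbered libraries correlated at 0.0798, 0.0712 and 0.0032, so the numbers were not taken as pairs. Libraries 1 and 2 of shCtrl each correlated best with the same-numbered library of shSATB1, and library 3 of shCtrl with library 1 of shSATB1, at 0.0157. At these depths 3 reads equal 0.103 to 0.111 CPM, which limits HLA-DRA, HLA-G, TAP2 and 6 further members.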
